A study of Homo sapiens with 8 samples.

Results

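Cells in the first 25% of S phase were compared between CFAP20-KO and wild-type (WT) cells of RPE-1 hTERT, a telomerase-immortalised human line from the retinal pigment epithelium. Members were cells with at least 5000 fragments on chromosomes 1 to 22 and a position of at most 0.25 in an order of S phase. Members were thus chosen by their measured label: correspondence analysis was run on counts per 500 kb autosomal bin, over both genotypes and all 8 plates together, and its first axis gave the order. The end richer in chromosome 19 was set to 0. Position is the rank of a cell over the number of ordered cells. Bins under 0.1 of the median total were dropped, which kept 5423 bins, and the axis held 22.3% of the variation. Of 3023 wells, 914 cells were ordered, and 228 of these were members, 139 WT and 89 KO.

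The study used single-cell EdU sequencing, in which a thymidine analogue marks the DNA made during a short pulse and the labelled fragments of each cell are captured and sequenced. Cells received 10 µM EdU for 15 min, were fixed in ethanol and sorted into 384-well plates, and each of the 8 plates held both genotypes. The groups share the parental line and the pulse, and the labels name no other agent. The genotype of a well came from the deposited treatment column, because the labels' genotype field reads CFAP20-KO for every plate while the titles name both genotypes. The sources used here do not give the number of KO clones, so a property of a clone and an effect of the genotype cannot be told apart. Nor do they say whether the plates were separate cultures, so the p-values measure the spread between plates, which may be technical.

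CFAP20 is a cilia- and flagella-associated protein, and the title of the study ties it to arrested RNA polymerase II in front of replication forks that travel in the direction of transcription. In human cells replication begins at many origins in gene-rich, open chromatin, and 2 forks leave each origin in opposite directions. Heterochromatin, gene deserts and the inactive X chromosome copy late, so cells early in S phase carry their label mainly in and around active genes.

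Plates held 1746074 to 4181841 fragments, 91.1% to 92.8% of them autosomal, and each fragment was taken as 1 molecule. The members held 4190189 autosomal molecules, or 20.1% of those of the ordered cells, with 110313 to 554486 per plate in WT and 101414 to 277259 in KO. Markers of the pigment epithelium are markers of expression, which a DNA label does not measure, and the knockout itself cannot be checked this way. Molecules over CFAP20 (chromosome 16) ran from 2 to 27 CPM (molecules per 1000000 molecules of a plate and genotype) in WT plates, with a median of 16, and from 0 to 48 in KO plates, with a median of 18, and the gene was too sparse to be tested. DNA copy number was not measured here, so a difference in label between genotypes can also be one in copy number. Of 378 well barcodes, 377 occurred in all 8 plates, so plate and barcode together were taken to name a cell.

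The X chromosome, which the order did not use, was checked against the place of the members in S phase. It held 2.26% ± 0.117 (SD, n = 8 plates) of the label of WT members and 2.21% ± 0.146 of that of KO members. In WT cells its share was 3.22% at positions of 0.25 to 0.50, 5.19% at 0.50 to 0.75 and 15.1% above 0.75. Over both genotypes the share in members was 3.27-fold lower than in later cells, the ordered cells at positions above 0.25, on all 8 plates (log2 difference -1.71 ± 0.14; exact sign-flip permutation test over plates, adjusted p = 0.0117 over 6 values). On average the members thus held less X label than later cells. Single cells overlapped, since WT members reached 3.83%, above the WT mean of 3.22% at 0.25 to 0.50.

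At the limit of 0.25 the cells formed no step. The last 3 cells inside had 5654, 13382 and 19526 molecules, with 39.2%, 30.2% and 28.7% of their label in the bins that label earliest. The first 3 cells outside had 26524, 29162 and 42769 molecules, with 32.4%, 30.9% and 29.0%. The cells just inside were thus shallower than those just outside, and their early label overlapped.

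Fewer of the ordered KO cells than of the ordered WT cells were members, by a difference that missed the threshold. The share is a cut of the position, which the rule took from autosomal label, so its test is not independent of the rule. The share of a plate's ordered WT cells that were members ran from 21.5% to 36.1%, with a median of 28.7%, and that of KO cells from 12.5% to 33.3%, with a median of 17.3%. The KO share was lower on 7 of 8 plates and the ranges overlapped. The difference was -7.76 ± 6.36 percentage points and missed the threshold (exact sign-flip permutation test, p = 0.0234, adjusted p = 0.0547 over 14 values). Under 7 alternative settings the difference, between -8.15 and -5.85 points, passed it. Under the other settings it did not, and the adjusted p ran from 0.0219 to 0.0846 (exact tests, all plates kept).

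The rule placed both genotypes on 1 axis by their autosomal label, so the place of the members on it is given as a description, with no test. Their mean position was 0.124 ± 0.0173 in WT and 0.130 ± 0.0218 in KO. The earliest-labelling bins held 54.4% ± 2.92 of WT label and 54.2% ± 3.08 of KO label, and the latest-labelling bins 13.8% ± 1.08 and 14.2% ± 1.38. When each genotype was ordered by itself, KO members held less label in the earliest bins (-8.23 percentage points) and more in the latest (3.28 points).

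KO members carried less label per cell. Mean molecules per member ran from 12257 to 25204 over the WT plates, with a median of 20624, and from 12677 to 19600 over the KO plates, with a median of 15516. KO was lower on 7 of 8 plates, by 1.25-fold, and the ranges overlapped (log2 difference -0.32 ± 0.26; exact sign-flip permutation test, adjusted p = 0.0438 over 14 values). The call was lost when the pairing by plate was dropped (adjusted p = 0.0802; 0.0219 to 0.131 over all settings tried), and in 5 other settings. Single members ranged from 5166 to 50347 molecules in WT and from 5270 to 33117 in KO. In later cells the means over plates were 28736 in WT and 18977 in KO, against 19758 and 15745 in members. The log2 gap in members differed from that in later cells by 0.27 ± 0.23. This did not pass (exact sign-flip permutation test, adjusted p = 0.188 over 12 values). Less label per KO cell was thus seen later in S phase as well.

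The label of KO members lay in wider tracks. Track width was read from pairs of molecules of a cell, as their excess over pairs 400 to 500 kb apart. It is the separation where that excess was 50% of the excess seen at 5 to 10 kb, and not the length of a track. At the mean depth of WT, simulated tracks of 20 kb gave 13.7 kb and those of 25 kb gave 16.3 kb. The width grows with the length of DNA that a fork copies during the pulse, and also where neighbouring forks lie close. On the WT plates it ran from 12.2 to 13.3 kb with a median of 12.8 kb, and on the KO plates from 14.02 to 16.3 kb with a median of 15.4 kb. No KO plate fell into the WT range. The difference was 2.498 ± 0.703 kb (exact sign-flip permutation test, adjusted p = 0.0273, higher on 8 of 8 plates). Molecule number moved with genotype, so the width was also taken from the 73 WT and 64 KO members of 10000 to 25000 molecules. There it was 12.7 ± 0.557 kb in WT and 15.3 ± 0.640 kb in KO, again higher in KO on all 8 plates (difference 2.63 ± 0.569 kb; exact p = 0.00781, the smallest that 8 plates allow).

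**Figure D1:**
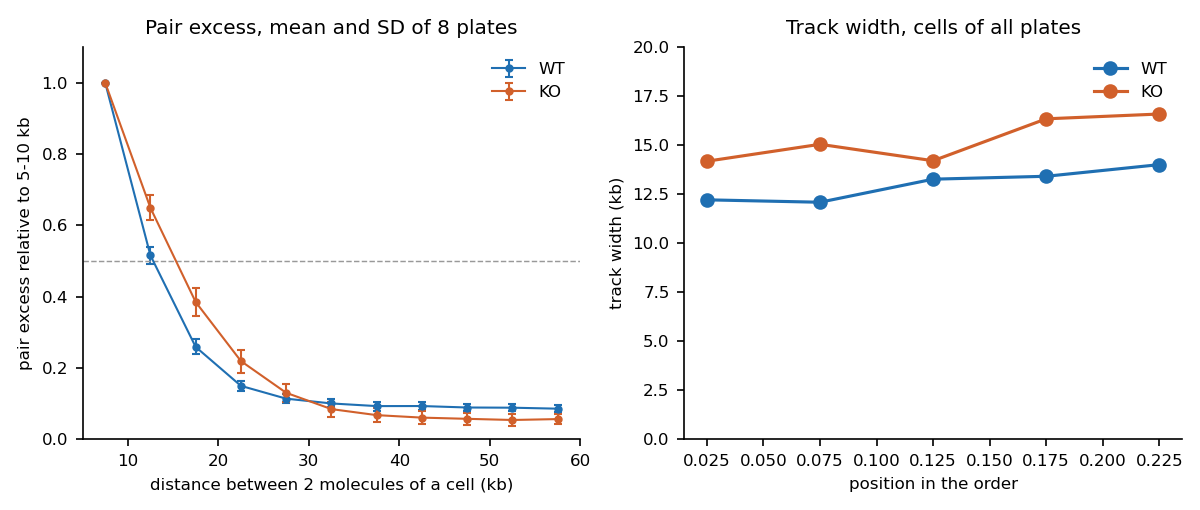
Left, the excess of molecule pairs within member cells against the distance between the molecules (kb), relative to 5 to 10 kb, as mean and SD of 8 plates; right, track width (kb) against position in the order for cells of all plates. KO pairs fall off over a longer distance, and KO width is above WT in all 5 slots of position.

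The gap was present at all positions up to 0.25. In 5 slots of 0.05 in position, WT width was 12.2, 12.1, 13.3, 13.4 and 14 kb and KO width was 14.2, 15.0, 14.2, 16.3 and 16.6 kb. The slots hold 26 to 31 WT cells and 14 to 20 KO cells. Over cells of both genotypes together, tracks were narrower in members than later, on 8 of 8 plates (-2.21 ± 0.636 kb, exact sign-flip permutation test, adjusted p = 0.0117). Members were 139 WT and 89 KO cells and later cells 344 and 342, so WT weighed more among members. By genotype, with no test, mean width was 12.8 kb in members and 15.7 kb later in WT, and 15.3 and 16.6 kb in KO. At 0.25 to 0.50, 0.50 to 0.75 and above 0.75, WT width was 15.5, 16.2 and 15.5 kb and KO width 16.9, 17.96 and 16.02 kb. The gap between genotypes was 1.54 ± 0.993 kb larger in members than in later cells, on 7 of 8 plates, which did not pass (exact sign-flip permutation test, adjusted p = 0.188 over 12 values). Widening of the KO tracks is therefore not shown to be particular to early S phase.

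KO members had fewer labelled regions. The number per cell was estimated from the pair excess summed from 1 to 100 kb, so it shares its data with the width. It ran from 10283 to 12092 on WT plates with a median of 10938, and from 8013 to 9577 on KO plates with a median of 9014. The ranges did not overlap, and the log2 difference was -0.30 ± 0.12 (exact sign-flip permutation test, adjusted p = 0.0273, lower on 8 of 8 plates). A count that needs no model gave a smaller difference. With each cell thinned to 5000 molecules, label occupied 3486 to 3723 bins of 50 kb on WT plates, with a median of 3607, and 3255 to 3529 on KO plates, with a median of 3449. KO was lower on all 8 plates, though the ranges overlapped (log2 difference -0.08 ± 0.04; exact sign-flip permutation test, adjusted p = 0.0273). KO members thus had wider tracks and fewer labelled places than WT members. Both counts were also lower in KO in later cells. There the mean number of regions was 8299 in WT and 7258 in KO, and that of occupied bins 3612 and 3367. The gap in members differed from that in later cells by -0.11 ± 0.14 for regions and 0.02 ± 0.06 for bins (log2). Neither passed (exact sign-flip permutation test, adjusted p = 0.211 and 0.496 over 12 values).

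KO members also resembled each other less. At 5000 molecules, 2 WT members of a plate had 5.91% to 6.86% of their labelled 50 kb bins in common, with a mean of 6.40% ± 0.362. For 2 KO members the share was 5.29% to 5.92%, with a mean of 5.72% ± 0.213. The share was lower in KO on all 8 plates, and the ranges touched only at their ends (difference -0.67 ± 0.37 points; exact sign-flip permutation test, p = 0.00781). Fewer occupied bins per KO cell move with this value, and their part in it was not tested. This comparison was added after the data had been seen.

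**Figure D2:**
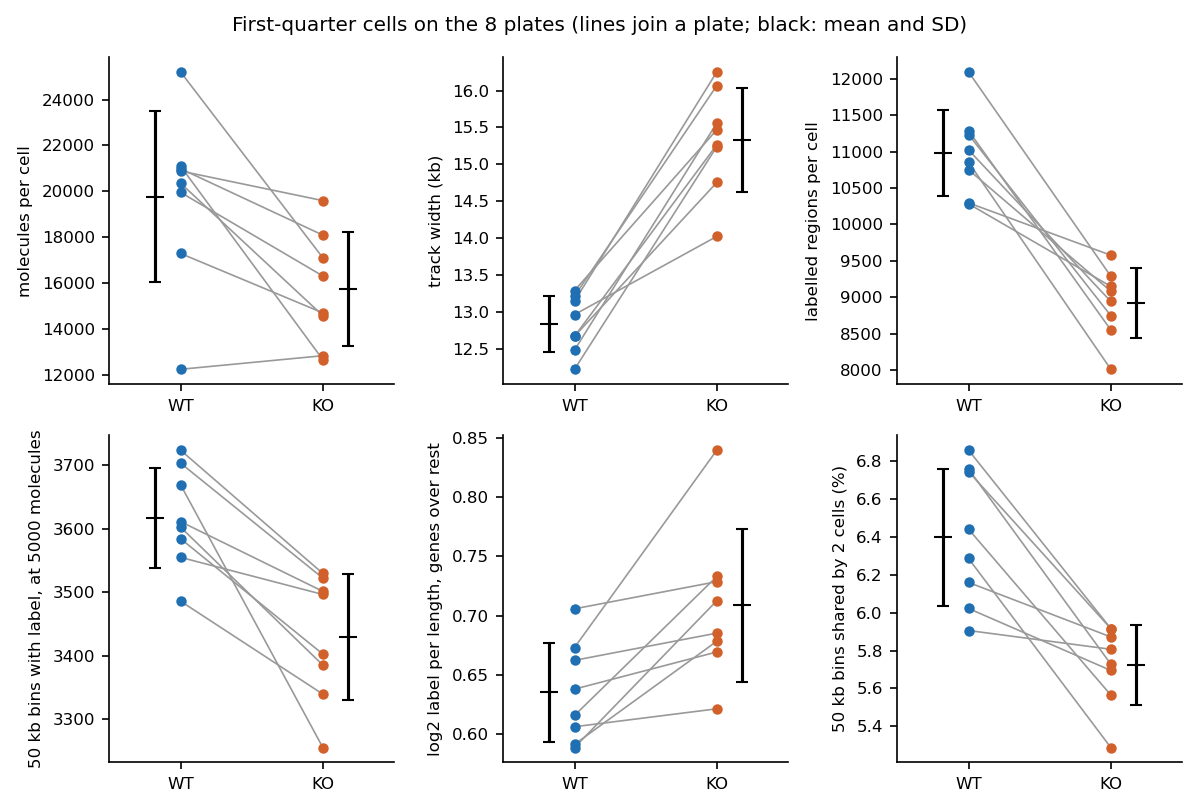
The plot gives 6 values of the first-quarter cells by genotype, 1 point per plate with lines joining WT and KO of a plate and black marks for mean and SD. Track width and labelled regions do not overlap between genotypes, whereas molecules, occupied bins, the gene body ratio and the bins shared by 2 cells overlap or touch.

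Label of the members was concentrated in genes. The log2 ratio of label per length inside protein-coding genes to that outside ran from 0.59 to 0.71 on WT plates with a median of 0.63, and from 0.62 to 0.84 on KO plates with a median of 0.70. KO was higher on all 8 plates, with overlapping ranges (difference 0.07 ± 0.06; exact sign-flip permutation test, adjusted p = 0.0273). The sign turned to -0.03 when each genotype was ordered by itself (exact test, adjusted p = 0.419, with 0.0219 to 0.419 over the settings tried). On the common axis the difference kept its sign but missed the threshold under several settings. These were a lower position limit, a lower or a higher molecule minimum, and repeats counted once. The cause of these changes was not tested. The ratio moves with position, which the rule took from autosomal label, so its test is not independent of the rule. The ratio fell with position among the members in both genotypes, from 0.86 to 0.38 over the 5 slots in WT and from 0.94 to 0.51 in KO. It was 0.02 in WT and 0.14 in KO at positions of 0.25 to 0.50, and -0.90 and -1.05 above 0.75.

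The label of WT members was uneven across gene boundaries, and that of KO members much less so. The question follows from the study's title, which is about forks that travel with transcription. For 4924 autosomal genes of at least 50 kb and the start listed for each, the label in the 50 kb after the start was set against the 50 kb before it. The log2 ratio was -0.21 to -0.05 on the WT plates, with a median of -0.09, and -0.06 to 0.05 on the KO plates, with a median of 0.01. It was below 0 on 8 of 8 WT plates and on 2 of 8 KO plates. KO exceeded WT on every plate, by 0.12 ± 0.04 (exact sign-flip permutation test, adjusted p = 0.00781 over starts and ends). Over the 3691 genes whose listed start lies within 1 kb of the gene edge the difference was 0.13. This comparison was also added after the data had been seen.

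In WT members the label peaked before the start and dipped at it. Relative to the mean of the 200 kb around the start, it was 1.097 ± 0.0503 at 5 to 10 kb before the start and 0.958 ± 0.0180 in the first 5 kb of the gene. In KO members it was 1.01 ± 0.0407 before the start, 0.943 ± 0.0308 in the first 5 kb and 1.05 ± 0.0298 at 5 to 10 kb into the gene. The dip in the first 5 kb was present in both genotypes, and the shoulder before the start was higher in WT. Label within 5 kb of all starts, over that at 50 to 100 kb, gave no difference (log2 -0.03 in WT and -0.05 in KO; exact test, adjusted p = 0.301).

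Gene ends mirrored the starts. The log2 ratio of label in the 50 kb beyond the end to that in the last 50 kb of the gene was 0.07 ± 0.05 in WT, above 0 on all 8 plates. It was -0.02 ± 0.05 in KO, below 0 on 6 of 8 plates. KO was lower on 8 of 8 plates, by -0.09 ± 0.05 (exact sign-flip permutation test, adjusted p = 0.00781). Over all genes of at least 50 kb together, WT label thus lay more outside than inside at both boundaries, while the KO values lay around 0.

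**Figure D3:**
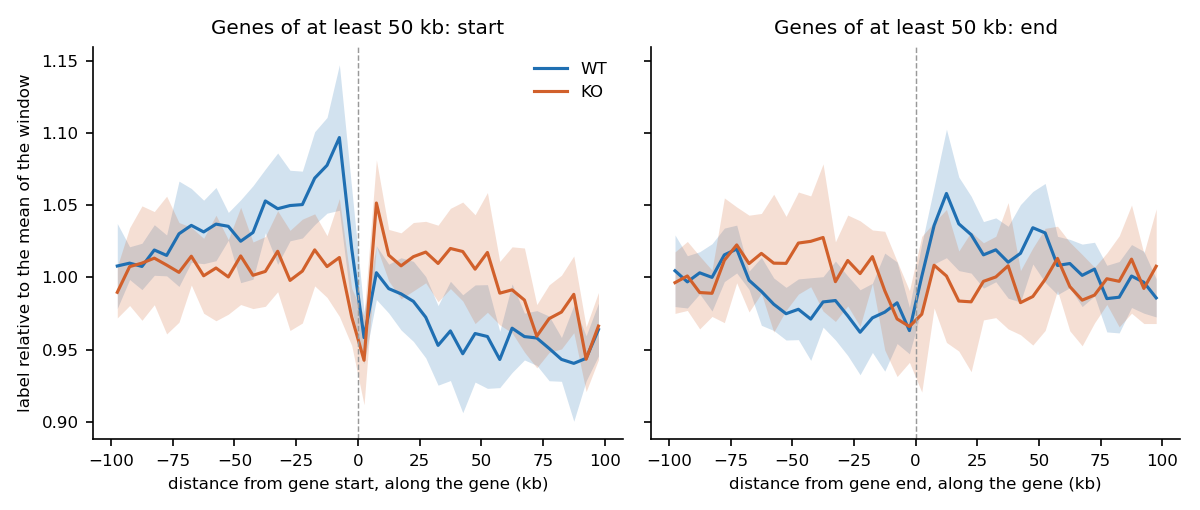
Label of first-quarter members around starts (left) and ends (right) of genes of at least 50 kb, against distance along the gene (kb), relative to the mean of the window. Lines are means and bands the SD of 8 plates. WT shows a shoulder of 1.097 before the start that KO lacks, and a smaller rise beyond the end.

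This boundary difference was larger in members than later in S phase. In later cells the ratio at starts was 0.02 in both genotypes and that at ends -0.01 in both. The genotype difference of members exceeded that of later cells by 0.12 ± 0.06 at starts and by -0.09 ± 0.06 at ends, each on 8 of 8 plates (exact sign-flip permutation test, adjusted p = 0.00781 for both). At 0.25 to 0.50, 0.50 to 0.75 and above 0.75, the WT ratio at starts was 0.00, 0.04 and 0.03, and the KO ratio 0.03, 0.05 and -0.01. Within the members it went from -0.18 in the earliest slot to -0.11 in the last in WT, and from -0.03 to 0.03 in KO. In members of 10000 to 25000 molecules alone, the difference from later cells at starts was 0.09 and missed the threshold (exact test, adjusted p = 0.0547; 0.00781 to 0.0547 over the settings tried). With molecules pooled over cells it was 0.07.

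Longer genes showed the asymmetry more strongly. At starts the WT and KO values were -0.09 and 0.01 for 2285 genes of 50 to 100 kb. They were -0.11 and 0.02 for 1528 genes of 100 to 200 kb, and -0.20 and -0.04 for 1111 genes of 200 kb or more. In the longest class the ratio at ends was 0.20 in WT and 0.09 in KO, and KO was below 0 on 1 of 8 plates. In genes of 50 to 100 kb the ratio at ends was 0.03 in WT and -0.05 in KO. There WT was below 0 on 2 of 8 plates and did not differ from 0 (exact sign-flip permutation test, p = 0.156). Restricting starts to 2351 genes with no other gene nearby gave -0.17 in WT and -0.02 in KO, and 1551 such ends gave 0.16 and 0.01. The direction of forks was not measured, since the label marks where DNA was made and not which way a fork moved.

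Across whole chromosomes the genotypes differed in a few places. Shares of label passed the test on chromosomes 1, 5, 7, 10 and 15 (exact sign-flip permutation test, adjusted p = 0.0359 over 23 chromosomes, same direction on 8 of 8 plates). Chromosome 7 held 5.29% ± 0.217 of WT and 3.94% ± 0.156 of KO label, a log2 difference of -0.42 ± 0.09. Chromosome 1 held 9.69% ± 0.211 and 10.2% ± 0.196, chromosome 5 5.72% and 6.08%, chromosome 10 6.58% and 6.81%, and chromosome 15 3.37% and 3.57%. The shares are of a common total, so a fall on chromosome 7 raises the others. The rule ordered cells by autosomal label. Tests of autosomal shares here, and of autosomal windows and genes below, are therefore not independent of the rule. No chromosome passed the test of its difference from later cells; the smallest adjusted p was 0.0898 (exact test), and on chromosome 7 that difference was -0.13 ± 0.11. Chromosome 20 had a log2 difference of -0.12 ± 0.10 in members (adjusted p = 0.0898, exact test).

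In windows of 5 Mb, 155 of 595 tested, or 26.1%, differed between KO and WT members (limma with plate as a block, adjusted p under 0.05), 63 higher (10.6%) and 92 lower (15.5%). With each cell thinned to 5000 molecules, 16 were higher and 45 lower of 555 tested, and with equal weight per cell 38 were higher and 79 lower. Chromosome 7 gave 19 lower and 0 higher windows of 32 tested. Chromosome 4 gave 10 lower and 0 higher of 38, whereas chromosome 1 gave 10 higher and 1 lower of 48 and chromosome 5 gave 10 higher and 3 lower of 37. Whether the KO to WT difference was the same later in S phase was tested as an interaction, which compares members with later cells of the same genotype and so cancels a copy-number difference that all its cells share. It called 164 windows, or 27.6%. The KO to WT log2 difference was above that of later cells in 88 (14.8%) and below it in 76 (12.8%). Such a call can also rest on a difference in later cells alone. The lists shared 102 windows of the same direction, 65.8% of the first and 62.2% of the second, and 4 windows with opposite signs. The tests use the same members, so this overlap is no independent support.

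**Figure D4:**
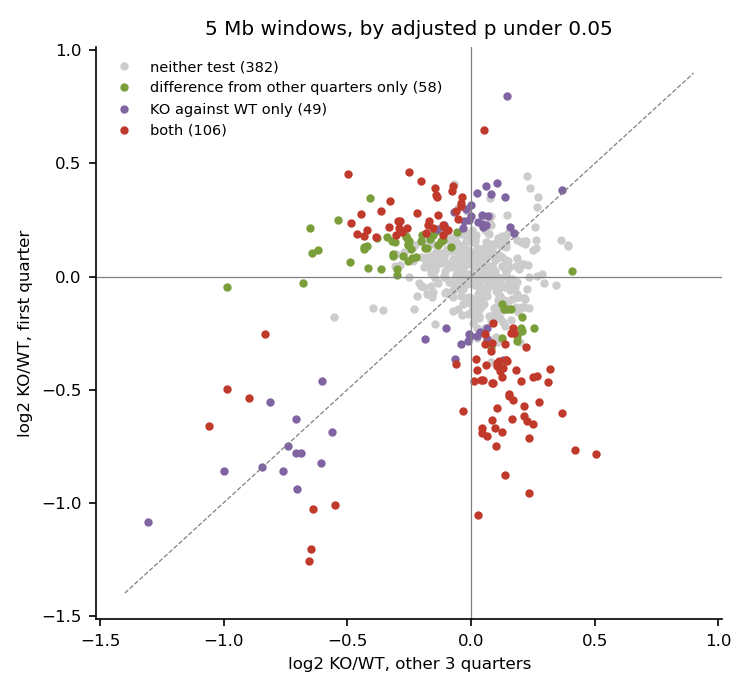
Each point is a 5 Mb window, with the log2 KO to WT difference in later cells on the horizontal axis and in first-quarter members on the vertical axis; the dashed line marks equal differences. Of the 595 windows, 382 passed neither test, 58 only the difference from later cells, 49 only KO against WT and 106 both.

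Several windows fell in KO members and not in later cells. At 75 to 80 Mb of chromosome 7, around PTPN12 and the synaptic scaffold gene MAGI2, WT plates held 2221 to 2730 CPM with a median of 2503, and KO plates 1104 to 1769 with a median of 1369. The ranges did not overlap, as was so for 4.2% of windows. The log2 difference was -0.79 ± 0.09 (SE; limma, adjusted p = 7.98e-08), against 0.50 in later cells, and the interaction was -1.35 (limma, adjusted p = 3.31e-11). At 105 to 110 Mb of chromosome 5 WT held 914 to 1301 CPM and KO 382 to 749, again without overlap (log2 -0.96 in members and 0.23 in later cells; interaction -1.21, limma adjusted p = 9.95e-08). At 20 to 25 Mb of chromosome 12, which holds SLCO1A2 and GYS2, WT held 867 to 1652 and KO 185 to 917. Its log2 difference was -1.06 in members and 0.03 in later cells (interaction -1.16, limma adjusted p = 3.65e-05).

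Other windows were low in KO both in members and in later cells. At 120 to 125 Mb of chromosome 7 WT held 1043 ± 121 CPM and KO 436 ± 75.6, with a log2 difference of -1.26 ± 0.12 in members (limma, adjusted p = 3.86e-09) and -0.66 in later cells, and the interaction of -0.58 passed (limma, adjusted p = 0.00192). At 35 to 40 Mb of chromosome 10 the WT plates ran from 1090 to 3912 and the KO plates from 889 to 1169. There the difference was -1.09 in members and -1.31 later, and the interaction of 0.17 did not pass (limma, adjusted p = 0.569; 0.0388 to 0.569 over the settings tried, with the same sign). Windows at 105 to 115 Mb of chromosome 7 and at 10 to 15 Mb of chromosome 20 gave -1.03, -1.21 and -1.01 in members and -0.64, -0.65 and -0.55 in later cells. Their interactions of -0.40, -0.57 and -0.48 passed, that on chromosome 20 not without plate 3 or plate 7.

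The rises in KO members were smaller. At 75 to 80 Mb of chromosome 5, around PDE8B, WT plates held 1669 to 2218 CPM with a median of 1950, and KO plates 2063 to 3342 with a median of 2569. The ranges overlapped a little (log2 0.46 ± 0.07, limma adjusted p = 1.68e-05; -0.25 in later cells; interaction 0.68, adjusted p = 1.21e-05). At 90 to 95 Mb of chromosome 9, around ROR2, WT held 1286 to 1672 and KO 1662 to 2265 (log2 0.42, limma adjusted p = 0.000115). The window at 90 to 95 Mb of chromosome 6 rose from 214 ± 47.7 to 339 ± 88.9 CPM (limma, adjusted p = 0.00163). That at 50 to 55 Mb of chromosome 11 rose from 63.3 ± 23.4 to 110 ± 44.1 (limma, adjusted p = 0.00246), with WT plates down to 33.4. Members gave only 2.75% and 2.73% of the label of these windows. On chromosome 11 the difference from later cells missed the threshold (limma, adjusted p = 0.0534, with 0.00065 to 0.0534 over the settings tried). The median window had a log2 difference of 0.03.

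Among 4394 genes with a mean of at least 10 molecules per library, 162 (3.69%) differed between KO and WT members, 92 (2.09%) higher and 70 (1.59%) lower (limma with plate as a block, adjusted p under 0.05). Without plate 7 the counts were 58 and 45. Calls depended on how cells were weighted, since a deep cell adds more molecules to a sum: 72 of the 162 were also called when each cell counted equally and 52 when cells were also matched by position. The gene values give label over a gene's DNA and not its expression. The difference from later cells passed for 387 genes (8.81%). The KO to WT log2 value was above that of later cells for 182 (4.14%) and below it for 205 (4.67%). Of the 162 genes, 128 were called in both tests with the same sign, which is 79.0% of the first list and 33.1% of the second.

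CLIC5, which encodes an intracellular chloride channel protein and lies at chr6:45880827-46129819 (GRCh38), had the greatest rise. WT plates held 0 to 33.2 CPM with a median of 13.3, and KO plates 30.9 to 172 with a median of 125. KO was higher on 7 of 8 plates, and the ranges met only at their ends (log2 3.14 ± 0.57 SE, limma adjusted p = 3.67e-05). At least 1 molecule was found in 23 of 139 WT members and 41 of 89 KO members. In later cells WT exceeded KO, at 135 ± 14.4 against 95.6 ± 11.2 CPM, and the interaction was 3.76 (limma, adjusted p = 2.17e-08).

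PDE8B, a cyclic AMP phosphodiesterase gene at chr5:77086715-77428256, gave the clearest separation of the plates among the genes that rose. WT plates held 21.2 to 61.2 CPM with a median of 40.1, and KO plates 113 to 258 with a median of 156. The ranges did not overlap, as was so for 0.66% of tested genes. The log2 difference was 2.07 ± 0.32 (limma, adjusted p = 2.83e-07) and that from later cells 2.71. In later cells WT was again the higher genotype, at 172.8 ± 28.4 against 119 ± 24.7.

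ROR2, which encodes a Wnt receptor kinase, was at 13.1 to 77.6 CPM on WT plates and 49.8 to 186 on KO plates, with medians of 31.3 and 136. It was higher in KO on all 8 plates though the ranges overlapped (log2 1.92 ± 0.34, limma adjusted p = 2.12e-05). USP15, a deubiquitinase gene, had medians of 51.3 and 147 (log2 1.70, limma adjusted p = 3.74e-05, higher on 7 of 8 plates). DNAH5, an outer-arm dynein gene of motile cilia, rose from 163 to 257 CPM in WT to 244 to 471 in KO (log2 0.74, limma adjusted p = 0.00178). All 3 also rose against later cells, with interactions of 2.74, 2.34 and 1.88. Each of CLIC5, PDE8B, ROR2 and USP15 kept its call without any 1 plate, with equal weight per cell and after matching by position. ENTHD1 and EPB41L4A, with log2 differences of 1.99 and 1.67, lost it on matching (adjusted p = 0.256 and 0.103, limma), and ENTHD1 also with equal weight (adjusted p = 0.267).

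**Figure D5:**
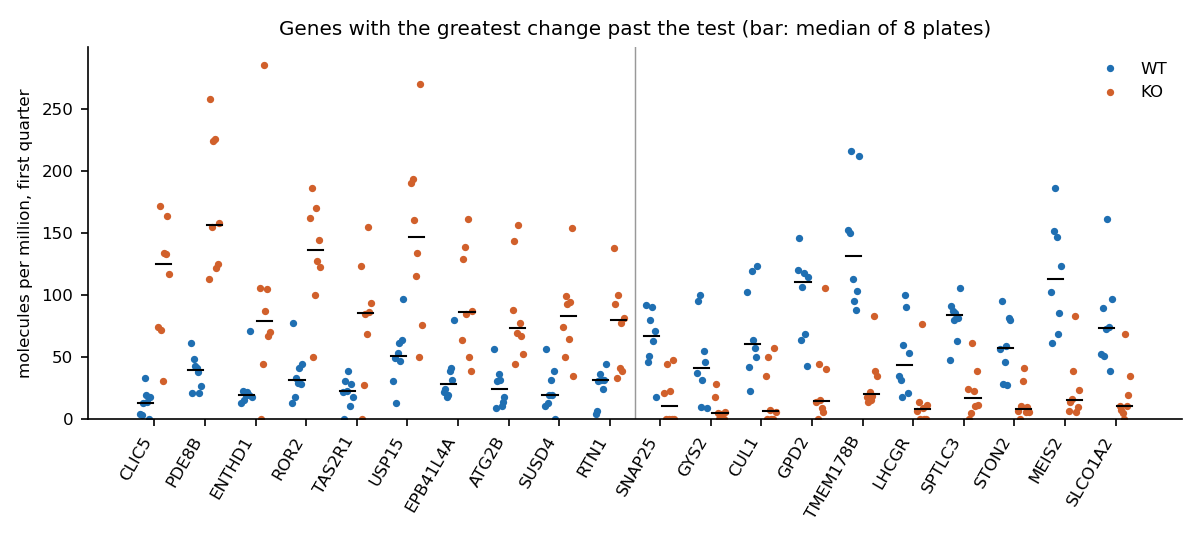
Molecules CPM in first-quarter members for the 10 genes with the greatest rise and the 10 with the greatest fall past the test; each point is a plate and each bar the median of 8 plates. The points of PDE8B and TMEM178B do not overlap between genotypes; most other genes overlap at 1 or more plates.

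Among the genes that fell, MEIS2, a homeobox transcription factor gene at chr15:36889204-37101311, was at 61.7 to 186 CPM on WT plates with a median of 113. KO plates held 5.54 to 82.9, with a median of 15.5. KO was lower on all 8 plates, though 1 KO plate lay inside the WT range (log2 -2.03 ± 0.50, limma adjusted p = 0.00595). In later cells KO was the higher genotype, at 98.6 ± 31.3 against 62.3 ± 12.8, and the interaction was -3.06 (limma, adjusted p = 1.58e-06). Label over MEIS2 was found in 71 of 139 WT members and in 19 of 89 KO members. KO members also held fewer molecules per cell, and these counts of cells were not matched for depth.

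TMEM178B, a transmembrane protein gene at chr7:141074064-141511296, was at 88.1 to 216 CPM on WT plates and 14.3 to 83.1 on KO plates. The ranges did not overlap (log2 -2.17 ± 0.49, limma adjusted p = 0.00167). It lies on chromosome 7, as does CUL1, the scaffold of SCF ubiquitin ligases, which fell by 2.30 on the log2 scale, and the lower share of that whole chromosome moves with both. SNAP25, which encodes a SNARE protein of synaptic vesicle fusion, had a median of 67.3 CPM on WT plates and 10.6 on KO plates. It was lower on 8 of 8 plates (log2 -2.38 ± 0.60, limma adjusted p = 0.00675) and missed the threshold with equal weight per cell (adjusted p = 0.0649). SNAP25 lies in the window at 10 to 15 Mb of chromosome 20, which was low in KO later cells too (log2 -0.55). For SNAP25 and CUL1 the difference from later cells missed the threshold (limma, adjusted p = 0.0561 and 0.0938). Over the settings tried these values ran down to 0.000543 and 0.00479.

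In the SLCO1 stretch of chromosome 12, the organic anion transporter gene SLCO1A2 was at 39.2 to 162 CPM in WT and 0 to 69.1 in KO, with medians of 73.7 and 10.8. It was lower on all 8 plates (log2 -1.97 ± 0.51, limma adjusted p = 0.00969), with an interaction of -2.68. Its neighbour GYS2, the glycogen synthase gene of liver, had medians of 41.7 and 5.07 (log2 -2.38, limma adjusted p = 0.0132). The call of GYS2 was lost without any 1 of plates 3, 6 and 7. Neighbouring genes share replicated stretches and are not independent. PGM5, a phosphoglucomutase-like gene on chromosome 9, was at 100.5 to 185 CPM in WT and 0 to 96.8 in KO without overlap (log2 -1.43, limma adjusted p = 0.0252; interaction -2.79). Its call was lost without any 1 of plates 1, 2 and 7. GPD2, the mitochondrial glycerol-3-phosphate dehydrogenase gene, fell by 2.21 on the log2 scale (limma, adjusted p = 0.00838; lost without plate 2).

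Gene lists for pathways and cell types were read by their counts, beside 2.09% higher and 1.59% lower over all tested genes and a median log2 of 0.03. Of all 4394 tested genes, 2321 had a log2 value above 0. Of 20 tested genes of replication forks and origins, 0 passed in either direction; their median log2 was 0.36, with 14 of 20 above 0. Of 11 tested genes of RNA polymerase II and transcription-coupled repair 0 passed, with a median of -0.12. These lists hold 57 and 50 genes, most of which were not tested. On simulated data the gene test found 30% of 2-fold and 76% of 4-fold changes. A count of 0 therefore does not show that label was unchanged. Of 29 cilia and flagella genes DNAH5 rose and 0 fell (median -0.04), and of 14 cell cycle genes CUL1 fell and 0 rose (median -0.17). The replication list had the highest median of these lists without any single gene past the test, and whether it differs from other genes was not tested.

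Of 29 tested genes of common fragile sites, AUTS2, IMMP2L and MAGI2 fell and 0 rose, with a list median of -0.09. All 3 lie on chromosome 7. MAGI2 was at 372 to 738 CPM in WT and 139 to 380 in KO (log2 -1.17 ± 0.17, limma adjusted p = 3.20e-08). In later cells it was higher in KO, at 943 ± 84.8 against 612 ± 38.2. AUTS2, by contrast, was also lower in KO later, at 380 ± 88.6 against 533 ± 73.1, and so was IMMP2L, at 253 ± 44.1 against 365 ± 42.6. Of 20 neuronal genes, the synaptic adhesion gene NRXN3 (log2 -1.08, limma adjusted p = 9.45e-06) and SNAP25 fell, and the splicing factor gene RBFOX3 rose (log2 0.64, limma adjusted p = 0.0177; lost without any 1 of plates 6 and 7). Of 23 mesenchymal and matrix genes, the collagen gene COL5A1 rose (log2 1.57; lost without plate 6) and the caldesmon gene CALD1, on chromosome 7, fell (log2 -1.12). Of 10 blood and immune genes 0 passed. Housekeeping and liver lists had 2 tested genes each and 0 calls. With equal weight per cell DNAH5, CUL1, GYS2 and COL5A1 missed the threshold (limma, adjusted p = 0.0625, 0.0918, 0.133 and 0.221). After matching by position SLCO1A2 and RBFOX3 did so as well (limma, adjusted p = 0.0508 and 0.0881).

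Which genes the members labelled most follows from the rule and is given as a description. For each gene, the share of ordered-cell molecules that came from members was averaged over plates; over all molecules it was 19.7% ± 3.84. Among 3609 genes (50 kb or longer, 30 or more molecules on each plate), the share ran from 0.685% to 88.0% with a median of 27.1%. The highest were the histone demethylase gene KDM4B (88.0%), the growth factor gene FGF1 (87.0%), PI4KA (86.8%), RAB31 (86.4%), ZNF451 (85.8%), CLIP1 (85.6%), the mitochondrial channel gene VDAC1 (85.6%), MTMR3 (85.5%), AAK1 (85.5%) and the hexokinase gene HK1 (85.1%). The lowest included the olfactory receptor gene OR6N1 (0.69%), ZNF718 (0.78%), the cadherin gene CDH10 (1.04%) and NOVA1 (1.18%), a neuronal RNA-binding protein gene. CFAP20 itself had 72.3% ± 19.6.

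Lists differed in the same way. The median share was 76.2% over housekeeping genes, 65.1% over mesenchymal and matrix genes, 64.6% over RNA polymerase II and repair genes and 61.7% over replication genes. It was 4.44% over common fragile site genes and 4.01% over neuronal genes, against 55.4% over all 17992 genes with a value. Most label on common fragile site and neuronal genes thus came from later cells, although their length gave 29 of 31 and 20 of 30 of them enough molecules in members to be tested.

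Promoter sequence was read as the 250 bases before the 1 start per gene that the RefSeq table lists (GRCh38.p14). That start can lie inside the gene as annotated, as it does for CLIC5, MEIS2 and NOVA1, so only genes whose listed start is at the gene edge are shown. CpG is the letter pair CG, which reads the same on either strand, and genes in early-replicating chromatin often have promoters dense in it. RAB31 shows a high member share and CDH10 a low one, PDE8B and ROR2 rose in KO members and TMEM178B fell. Each sequence is given 5′ to 3′ along the gene, with every CpG in capitals.
RAB31: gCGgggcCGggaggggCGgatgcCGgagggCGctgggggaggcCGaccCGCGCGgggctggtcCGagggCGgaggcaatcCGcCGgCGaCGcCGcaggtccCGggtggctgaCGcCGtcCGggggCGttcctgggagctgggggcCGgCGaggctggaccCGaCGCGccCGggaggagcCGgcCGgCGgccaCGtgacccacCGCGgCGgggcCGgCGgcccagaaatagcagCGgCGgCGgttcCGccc
CDH10: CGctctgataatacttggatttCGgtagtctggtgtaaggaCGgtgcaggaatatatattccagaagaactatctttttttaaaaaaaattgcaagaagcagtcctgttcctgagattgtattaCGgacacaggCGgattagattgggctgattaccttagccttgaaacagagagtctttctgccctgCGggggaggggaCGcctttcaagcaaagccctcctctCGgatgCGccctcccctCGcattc
PDE8B: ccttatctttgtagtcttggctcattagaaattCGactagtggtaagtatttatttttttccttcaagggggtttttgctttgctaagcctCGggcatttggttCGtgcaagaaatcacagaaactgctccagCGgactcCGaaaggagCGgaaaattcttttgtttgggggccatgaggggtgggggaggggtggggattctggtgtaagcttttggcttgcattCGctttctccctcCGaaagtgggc
ROR2: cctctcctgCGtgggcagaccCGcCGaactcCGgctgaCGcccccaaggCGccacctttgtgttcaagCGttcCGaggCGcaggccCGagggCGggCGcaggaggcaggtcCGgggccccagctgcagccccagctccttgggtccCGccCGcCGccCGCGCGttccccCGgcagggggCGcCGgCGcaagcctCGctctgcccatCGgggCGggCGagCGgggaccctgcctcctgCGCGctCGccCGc
TMEM178B: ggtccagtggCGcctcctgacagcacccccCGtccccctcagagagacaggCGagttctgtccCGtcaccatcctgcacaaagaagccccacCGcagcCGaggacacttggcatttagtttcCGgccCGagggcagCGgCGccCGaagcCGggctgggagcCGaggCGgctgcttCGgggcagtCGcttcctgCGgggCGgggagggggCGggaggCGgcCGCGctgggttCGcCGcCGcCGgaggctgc
RAB31 (chr18:9708051-9708300, plus strand) held 40 CpG, a number that 2.68% of 15100 autosomal promoters reach. CDH10 (chr5:24644979-24645228, minus strand) held 10, which 67.4% reach. PDE8B (chr5:77086465-77086714, plus strand) held 8, ROR2 (chr9:91950229-91950478, minus strand) 32 and TMEM178B (chr7:141073814-141074063, plus strand) 26, which 71.0%, 12.2% and 25.8% of promoters reach. HK1, in the top 10 by member share, held 1.

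Over 2158 ranked genes whose listed start lies within 1 kb of the gene edge, in 4 groups of 539 or 540 by rising member share, the mean number of CpG was 18.2, 20.4, 22.1 and 22.5. The mean GC content was 61.3%, 63.4%, 64.5% and 65.5%. The 49 such genes that rose in KO members had a mean of 24.3 CpG and the 30 that fell a mean of 17.7, against 21.95 over 2697 tested genes. These means are descriptions of base composition, with genes as the points and no test.

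Measures of library quality were compared between KO and WT members. Median fragment length was 252.5 ± 8.88 bp in WT and 253.75 ± 9.35 bp in KO (exact sign-flip permutation test, adjusted p = 0.766), and repeated fragments made up 3.71% ± 0.640 and 3.72% ± 0.740 (exact test, adjusted p = 0.922). The mitochondrial share was 0.216% ± 0.0285 in WT and 0.246% ± 0.0180 in KO, higher on 7 of 8 plates (log2 0.19 ± 0.21; exact test, adjusted p = 0.0781). Over both genotypes members had a mitochondrial share above that of later cells (log2 0.29 ± 0.19; adjusted p = 0.0188, exact test), which turned to -0.25 with a minimum of 3000 molecules per cell (adjusted p = 0.0547, exact test; 0.00249 to 0.0547 over the settings tried). They had fewer molecules (log2 -0.38 ± 0.13; adjusted p = 0.0117, exact test). Their median fragment length was lower on all 8 plates (difference -4.25 ± 2.49 bp; adjusted p = 0.0117, exact test). With 8 plates the exact test cannot go below 0.00781, and with 7 not below 0.0156, so an adjusted value can pass with 8 plates and miss with 7 though every plate has the same sign.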

How the data were processed

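Single-cell EdU sequencing data of RPE-1 hTERT cells were taken as deposited: per the file headers, each line gives the cell, chromosome, position, signed length and treatment of 1 fragment, and no value has been scaled. Positions are on GRCh38, per the submitters' processing notes. The sources used here name no aligner and no filter, and do not say whether duplicates were removed. Each fragment was taken as 1 molecule. Gene positions and promoters came from RefSeq tables of the same build (GRCh38.p14).

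The members and the gene lists were chosen with earlier results of these data known. Single values were averaged per plate and genotype and compared by a two-sided exact sign-flip permutation test over 8 plates, with Benjamini-Hochberg adjustment per family (14 KO to WT values, 12 differences from later cells, 6 values of members against later cells, 23 chromosomes). Pairing follows the titles, which place both genotypes on each plate. Deviations of WT and KO windows of a plate correlated at 0.0906 on average (-0.0891 to 0.259), against -0.0131 between plates, and 3 of 8 correlated best with their own plate. No 2 plates held the same data (chi-squared per degree of freedom 4.27 to 9.65 over 28 pairs).

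Molecules were summed per plate and genotype over 5 Mb windows and genes with a mean of at least 10 molecules, and tested with limma voom (plate as a block). The difference from later cells used 32 sums (8 plates, 2 genotypes, members and later cells). Named genes were fixed by rule: the 10 of greatest change in each direction past each test, the 10 of greatest and smallest member share (at least 50 kb and 30 molecules in every plate), 2 at each end of each list, and CFAP20. Genes of lists that passed the test are named too. The tests were tried on simulated data. Tools were Python 3.11.15, numpy 2.4.6, pandas 2.3.3, scipy 1.17.1, R 4.3.3 and limma 3.58.1. Alternatives changed the position limit, the molecule minimum, bin and window sizes, thinning, repeats, high-count bins, the order, the weighting of cells and the plates used. Overlapping genes share molecules, and strand was not used in counting.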

Additional observations from a re-analysis of the deposited data

Results flagged for a closer look

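The genotype difference at gene boundaries was larger in first-quarter members than in later cells, by 0.1187 at starts and by -0.0921 at ends (log2). For genes, the difference of the KO to WT log2 value from that of later cells passed limma's test in either direction. It was positive for CLIC5 (3.76), SPSB4 (3.24), SLC7A14 (2.79), ROR2 (2.74), PDE8B (2.71), ATL2 (2.49), SLCO2A1 (2.48), ATG2B (2.46), SUSD4 (2.45), SLC30A8 (2.44), TAS2R1 (2.37), USP15 (2.34), ENTHD1 (2.31), RTN1 (1.89) and EPB41L4A (1.77). It was negative for CLIP2 (-3.25), MEIS2 (-3.06), GYS2 (-3.03), SCN7A (-2.93), PKIA (-2.90), SBNO1 (-2.88), RPP30 (-2.87), GPD2 (-2.83), PTPN12 (-2.82), PGM5 (-2.79), SLCO1A2 (-2.68), LHCGR (-2.53), STON2 (-2.04), TMEM178B (-1.81) and SPTLC3 (-1.55). Leaving out 1 plate ended the call for SPTLC3 (plate 2, 3, 5, 6 or 8), STON2 (plate 2) and SBNO1 (plate 5). SPSB4 and SLC7A14 were lower in KO in later cells, at 22.3 ± 8.99 against 4.37 ± 2.34 and 37.0 ± 20.2 against 9.70 ± 7.98 CPM (WT to KO), while both were higher in KO members.

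The same test passed for windows. It was negative at 75 to 80 Mb (-1.35), 120 to 125 Mb (-0.58), 110 to 115 Mb (-0.57) and 105 to 110 Mb (-0.40) of chromosome 7, at 105 to 110 Mb of chromosome 5 (-1.21), at 20 to 25 Mb of chromosome 12 (-1.16) and at 10 to 15 Mb of chromosome 20 (-0.48). It was positive at 180 to 185 Mb (0.95) and 75 to 80 Mb (0.68) of chromosome 5, at 90 to 95 Mb of chromosome 6 (0.64), at 90 to 95 Mb of chromosome 9 (0.60), and at 135 to 140 Mb (0.85) and 155 to 160 Mb (0.86) of the X chromosome. Leaving out 1 plate ended the call at 155 to 160 Mb of the X chromosome (plate 3, 4, 6, 7 or 8), at 90 to 95 Mb of chromosome 6 (plate 2, 3, 5, 7 or 8) and at 10 to 15 Mb of chromosome 20 (plate 3 or 7). With 4 position classes the adjusted p of the first was 0.142 (limma), and with equal weight per cell that of chromosome 6 was 0.0568 and that of chromosome 20 0.0605. The X windows did not pass between genotypes in members (log2 0.21 and -0.05; limma, adjusted p = 0.137 and 0.887) and had KO to WT values of -0.65 and -0.99 in later cells.

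Some single plates lay far from the rest of their group. In the KO to WT difference of occupied bins, plate 2 was at -0.173 (log2). In KO members, CPM stood apart for GPD2 on plate 7 (106), TMEM178B on plate 6 (83.1), LHCGR on plate 4 (77.2), MEIS2 on plate 5 (82.9), ENTHD1 on plate 4 (286) and PKIA on plate 8 (70.1). In WT members they did so for ENTHD1 on plate 7 (71.3), EPB41L4A on plate 8 (79.6) and SBNO1 on plate 8 (115). These are 9 of 64 gene groups looked at, and chance alone marks about 1 in 20.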

How the results depend on the processing

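Outside the left-out plates, 523 values kept direction and side of the threshold; 18 became stronger, 19 weaker, 17 moved and 3 reversed; among the left-out plates 333 kept both. The cause was not tested for any of them. The lower share of KO members passed at limits of 0.20 (-6.79 points) and 0.30 (-7.80), minima of 3000 (-7.43) and 10000 molecules (-5.85), bins of 200 kb (-8.15) and 1 Mb (-7.80), and an order without chromosomes 7, 10, 12, 19 and 20 (-8.11). The lower molecule number missed it at 0.20 (-0.32), matched by position (-0.34), with no replicate block (-0.32), at 3000 (-0.30), without the molecules of those chromosomes (-0.29) and with each genotype ordered by itself (-0.20). The gene body ratio missed it at 0.20 (0.0569), 3000 (0.0585) and 10000 (0.04996) and with repeats counted once (0.0672), and reversed to -0.0308 with own orders. The mitochondrial difference passed at 0.20 (0.20), at 200 kb (0.20) and without those chromosomes in the order (0.22). Own orders also brought past it the earliest (-8.23 points) and latest bins (3.28), and against later cells the width (1.98 kb), molecules (0.38), regions (-0.12), earliest bins (-5.69) and mitochondrial share (-0.35); the width also passed there with no replicate block (1.54 kb). Of members against later cells, occupied bins missed it at 0.20 (0.00292), with no replicate block (0.0235), own orders (0.0120), repeats once (0.0164), without high-count bins (0.00424) and without those chromosomes' molecules (0.0114), and reversed at 20 kb (-0.0180); the mitochondrial share reversed at 3000 (-0.25), and fragment length (-4.25 bp) missed it with no replicate block. Chromosomes called fell from 5 to 0 at 10000, and those called against later cells rose from 0 to 4 (matched) and 6 (no replicate block). Windows called higher were 133 at 1 Mb, 16 thinned and 38 with equal weight (63 reported), lower 226, 53 at 10 Mb and 45 thinned (92). Genes called higher were 37 by limma-trend, 43 at a mean of 30 molecules, 33 with equal weight and 17 matched (92), lower 40, 46 and 38 at a mean of 30 molecules, with equal weight and matched (70), and lower against later cells 309 with 4 position classes apart (205). The difference of starts from later cells missed the threshold at like depth (0.0864), that of ends in genes of 50 to 100 kb (-0.0709). Leaving out a plate gave 0 chromosomes, gene body ratios of 0.0602 to 0.0819, regions -0.327 to -0.280, mitochondrial share 0.132 to 0.230, molecules -0.372 to -0.257, occupied bins -0.0848 to -0.0635, member share -9.39 to -6.51, width 2.41 to 2.70 kb, 58 to 86 genes higher and 45 to 76 lower; 7 plates cannot give a p under 0.0156, so most of those calls miss the adjusted threshold by construction. Depth limits the gene values: member libraries held 101414 to 554486 molecules, and genes under a mean of 10 were not tested.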
